A study of Mus musculus with 6 samples.

Results

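The genes examined here encode the oxygen-sensing machinery of the cell in mouse testis: the hypoxia-inducible factor (HIF) subunits Hif1a, Epas1, Hif3a and Arnt, the hydroxylases Egln1, Egln2, Egln3 and Hif1an that act on them, the ubiquitin ligase adaptor Vhl, and the HIF target Vegfa. Members were all probe sets of the array whose platform gene symbol was exactly one of these 10 names, which gave 29 of the 45101 probe sets in the table. On this platform a set of short oligonucleotides reads 1 stretch of a transcript, and most genes here have more than 1 such probe set. Whole testes came from 12 week old mice, 3 with intact Alkbh1 (WT) and 3 homozygous for an Alkbh1 knockout (KO, written Alkbh1-/-), and each mouse gave 1 Affymetrix array. The source label gives the background of both groups as C57/BL6, while the genotype label spells it C53/BL6. Which part of Alkbh1 was deleted, and whether the WT mice were littermates, is not stated in the labels used here. The genes were selected on their role, while their levels and the KO against WT difference of 1 Hif1a probe set (1416035_at) were already known. The genotype contrast over these genes is therefore a description and supports nothing by itself.

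HIF is a pair of proteins, an alpha subunit (HIF-1α from Hif1a, HIF-2α from Epas1, HIF-3α from Hif3a) and the constitutive partner Arnt. When oxygen is present, prolyl hydroxylases of the Egln family hydroxylate the alpha subunit, the Vhl protein recognises the hydroxylated form, and the subunit is degraded, while the asparaginyl hydroxylase from Hif1an blocks the binding of coactivators. These hydroxylases use oxygen, iron and 2-oxoglutarate, as the AlkB family to which Alkbh1 belongs also does. Much of this control acts on the protein, which an RNA array does not read. The seminiferous epithelium has no vessels of its own, and the interstitial Leydig cells are a known site of HIF-1α in rodent testis.

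The arrays read testis RNA as labelled. All 11 germ cell markers on the list passed the level filter, with a mean log2 value of 13.51 to 13.61 on the WT arrays and 13.59 to 13.61 on the KO arrays. Alkbh1 probe set 1434660_at fell from 8.60 ± 0.15 log2 in the WT mice to 5.42 ± 0.30 in the KO mice (SD over 3 mice each), which passed the test across all probe sets (limma adjusted p = 0.000582). That call was lost without WT replicates 1 and 2 together (limma adjusted p = 0.0631), although the difference, −3.18 with all arrays, was −3.30 there. The second Alkbh1 probe set, 1438681_at, differed by −1.02 ± 0.12 and missed the threshold (limma adjusted p = 0.0697). WT replicate 2 stood apart in its control probes, since the control for the 5′ end of 18S ribosomal RNA read 12.16 there and 6.63 to 8.67 on the other 5 arrays. Markers of Sertoli cells, the somatic nurse cells, had a mean of 9.14 on every WT array and 9.05 to 9.09 on the KO arrays, with 6 of 9 lower in KO and 0 passing the test. In whole testis, fewer cells of a type and less RNA per cell cannot be told apart.

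No transcript of the oxygen-sensing genes passed the test between KO and WT testes, and 1 probe set of Hif1a was the only one to differ by more than 0.2 log2. Of the 29 probe sets, 19 from 9 genes reached the level filter (a mean log2 value of at least 6.02 over the 6 arrays) and were tested. The other 10 lay below it, among them both probe sets of Egln3. None of the 19 passed (limma, Benjamini-Hochberg adjusted p under 0.05 over 27022 probe sets), where 0.0407% of all tested probe sets did (0.0333% higher and 0.0074% lower in KO). At an unadjusted p under 0.05 there were 2, both of Hif1a, against 5.11% of all tested probe sets. Differences of 18 of the 19 were under 0.2 log2 in size, as were 93.2% of those of all tested probe sets. The median absolute difference was 0.063 log2 for the 19 and 0.06 for all. Signed differences had a median of −0.019 for the 19, against 0.013 for all tested probe sets.

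**Figure D1:**
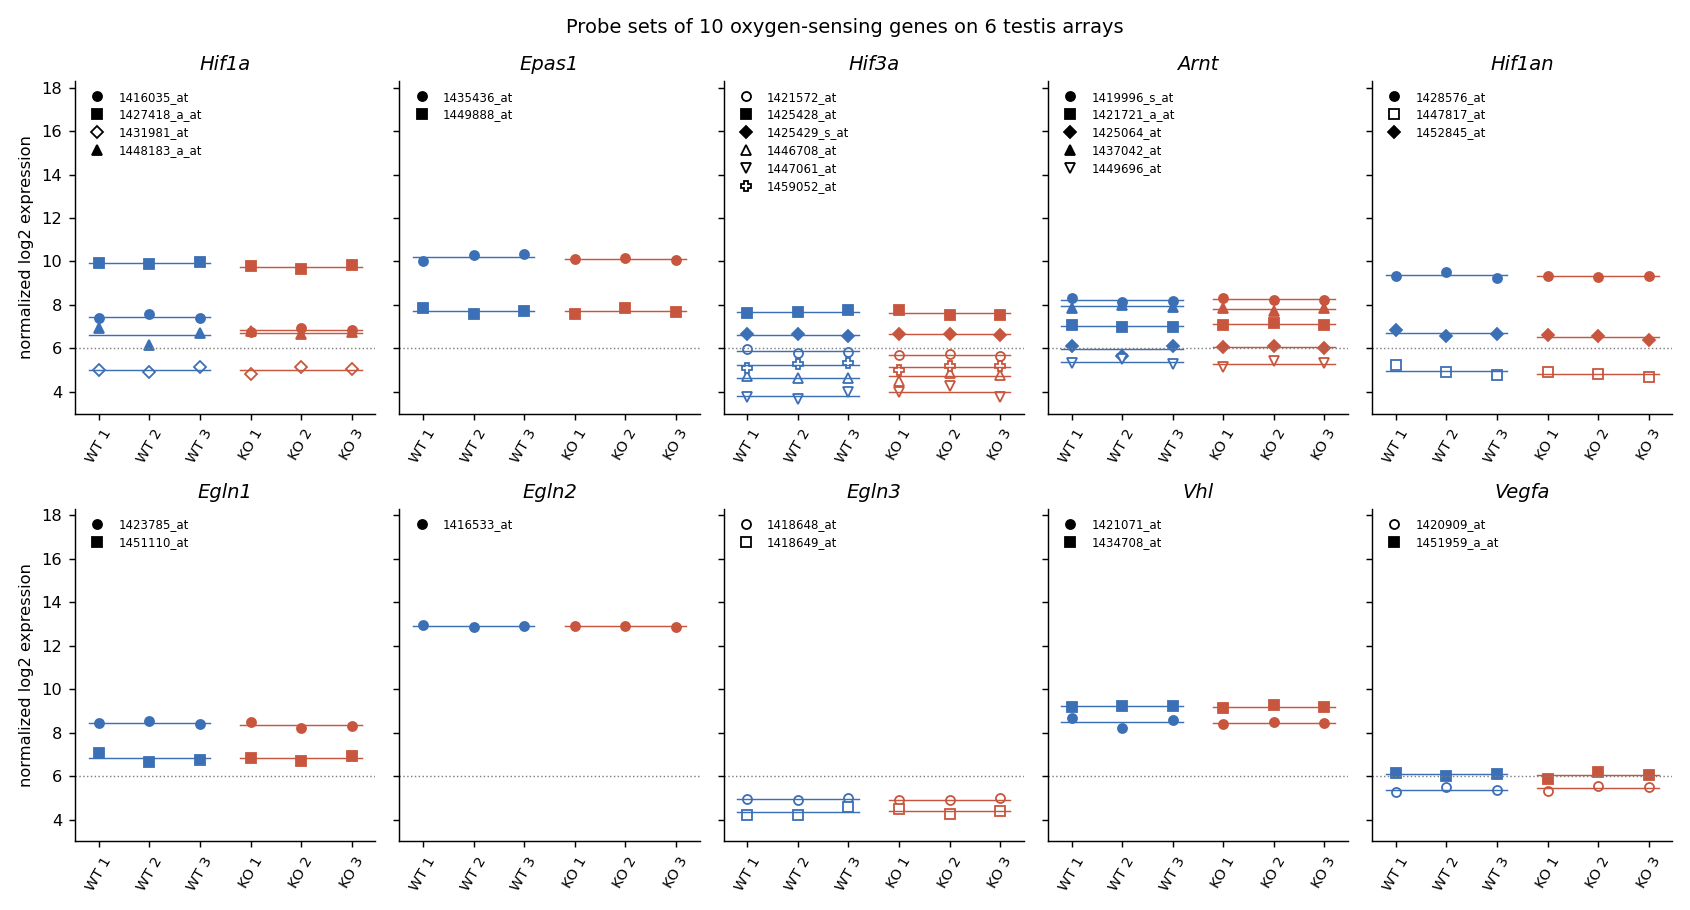
Normalized log2 expression (vertical axis) of each of the 29 probe sets on the 3 WT (blue) and 3 KO (red) arrays, 1 panel per gene and 1 marker shape per probe set, with a line at each group mean. Open markers are the 10 probe sets under the level filter (dotted line, 6.02), and heights cannot be compared between probe sets as amounts of RNA.

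Hif1a, the alpha subunit present in most cells, held the largest difference. Probe set 1416035_at read 7.38, 7.57 and 7.39 log2 in WT replicates 1 to 3 and 6.77, 6.94 and 6.84 in KO replicates 1 to 3. Every KO mouse lay below every WT mouse, by at least the gap between 6.94 and 7.38. The difference was −0.60 ± 0.08 (SE), which is 1.51-fold lower, and its adjusted p was 0.131 (limma). Of all tested probe sets, 0.196% had a difference as low or lower. Array weights were the single alternative that brought it past the threshold (−0.55, limma adjusted p = 0.0346), and over all 14 alternatives that gave a value it ran from −0.64 to −0.53 with adjusted p from 0.0346 to 0.733. WT replicate 2 was the highest WT value here, and without it the difference was −0.53.

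The other Hif1a probe sets did not share that size. Probe set 1427418_a_at read 9.94, 9.87 and 9.96 in WT and 9.77, 9.67 and 9.84 in KO, so that the groups again did not overlap, at a difference of −0.16 ± 0.06 (limma adjusted p = 0.932). Probe set 1448183_a_at read 6.96, 6.18 and 6.71 in WT and 6.80, 6.66 and 6.74 in KO. Its KO values all lay within the WT range, and WT replicate 2, the array with the high 18S reading, was its lowest. The difference there was 0.12 ± 0.18 with all arrays and −0.10 without WT replicate 2. Probe set 1431981_at, under the level filter, overlapped between groups, with 4.92 to 5.14 in WT and 4.82 to 5.13 in KO.

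Set within each array, the gap between 1416035_at and 1427418_a_at was −2.56, −2.30 and −2.57 log2 in WT and −3.00, −2.73 and −3.00 in KO. The gap was wider in every KO mouse than in any WT mouse, with means of −2.48 ± 0.15 and −2.91 ± 0.15 (SD, n = 3 each). The pair was the Hif1a probe set with the largest difference and the one with the highest mean. A wider gap in KO was therefore largely fixed by the choice, and it is a description only. Which exons or ends of the transcript each probe set covers was not analysed here. Hif1a lies on chromosome 12, as do Alkbh1 and Egln3. Both probe sets of Egln3 lay under the level filter, so their overlap between the groups says little. Leydig cell markers overlapped between groups, with a mean of 10.35 to 10.77 on the WT arrays and 10.41 to 10.70 on the KO arrays for the 5 of 7 measured. Single Leydig markers went both ways, from −0.33 at Star and −0.20 at Hsd3b1 to 0.17 at Cyp11a1 and 0.19 at Cyp17a1. Whether the shared chromosome has a part in the Hif1a difference was not tested. The same holds for the Sertoli cell markers, of which 6 of 9 were lower in KO, 3 were higher and 0 passed the test.

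**Figure D2:**
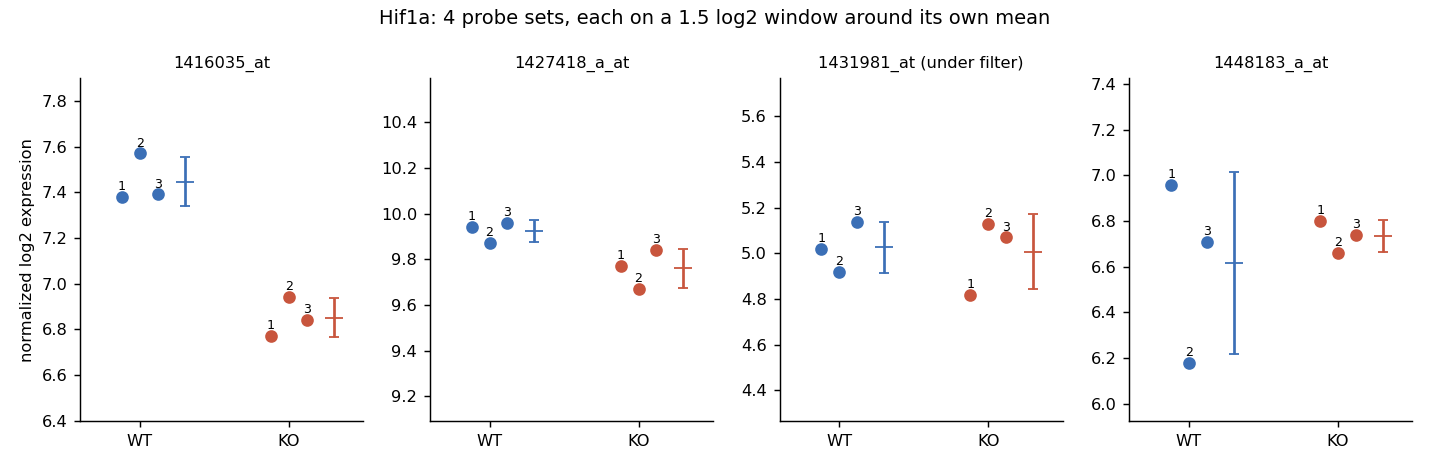
Normalized log2 expression of the 4 Hif1a probe sets in WT (blue) and KO (red) mice, with the replicate number over each point and the group mean ± SD at its right; each panel spans 1.5 log2 around its own mean. The groups do not overlap at 1416035_at (7.38 to 7.57 against 6.77 to 6.94) or 1427418_a_at and overlap at the other 2, and WT replicate 2 is the low point (6.18) at 1448183_a_at.

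The 5 named genes whose values over the 6 arrays ran closest to those of Hif1a probe set 1416035_at were Ptprg, Wdfy4, Fhit, Pzp and 2610005L07Rik. Likeness was the mean absolute distance between log2 values centred on each probe set's own mean, and it was 0.056, 0.0595, 0.0746, 0.075 and 0.0773 log2 for these genes, against a median of 0.31 over the 27021 probe sets compared. Because the genes were picked for this likeness, a KO minus WT difference near that of 1416035_at was largely fixed by the choice. Their own differences, from −0.67 to −0.46, are therefore a description only. Ptprg, Wdfy4 and Fhit lie on chromosome 14, Pzp on chromosome 6 and 2610005L07Rik on chromosome 8, so that none shares the chromosome of Hif1a.

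The promoter of Hif1a is shown because Hif1a held the largest difference, and those of Egln1 and Egln3 because both hydroxylase genes are known to be induced by HIF and so close a feedback loop. Each sequence is the 250 bases before the RefSeq start (GRCm38.p6), read 5′ to 3′ on the gene's strand, with the core of the hypoxia response element (ACGTG or GCGTG, on either strand) in capitals. They lie at chr12:73907617-73907866 on the plus strand (Hif1a), chr8:124949255-124949504 on the minus strand (Egln1) and chr12:54203875-54204124 on the minus strand (Egln3).
Hif1a: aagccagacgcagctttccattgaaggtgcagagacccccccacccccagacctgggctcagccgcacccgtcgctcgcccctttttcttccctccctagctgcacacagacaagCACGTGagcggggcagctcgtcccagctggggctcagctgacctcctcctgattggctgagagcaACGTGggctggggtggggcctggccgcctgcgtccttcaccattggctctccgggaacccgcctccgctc
Egln1: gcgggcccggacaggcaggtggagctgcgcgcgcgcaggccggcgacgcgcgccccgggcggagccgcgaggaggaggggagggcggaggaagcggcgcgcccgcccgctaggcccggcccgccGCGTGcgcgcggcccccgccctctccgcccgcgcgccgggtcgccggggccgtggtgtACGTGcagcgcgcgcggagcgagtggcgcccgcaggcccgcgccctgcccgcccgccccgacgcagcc
Egln3: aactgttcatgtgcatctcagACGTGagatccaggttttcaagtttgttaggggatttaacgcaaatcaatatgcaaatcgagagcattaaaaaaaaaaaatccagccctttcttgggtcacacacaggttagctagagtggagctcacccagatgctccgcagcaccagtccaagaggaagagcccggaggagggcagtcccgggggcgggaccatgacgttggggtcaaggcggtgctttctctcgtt
Hif1a had 3 matches, of which 2 overlap as the palindrome CACGTG, Egln1 had 2 and Egln3 had 1. Of the 10 genes 9 had an entry, with 11 starts in all, and 8 of these 11 held at least 1 match. The same held for 38.6% of the 32851 promoters in the table (16.6% for ACGTG and 28.2% for GCGTG). Egln2, with 4 matches before 1 of its 2 starts and 1 before the other, and Hif3a, Arnt and Vegfa held the others. Vegfa had 0 matches before the upstream 1 of its 2 starts, and its 2 matches lay before the downstream start. A match describes letters and says nothing about binding in these testes.

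Epas1, the alpha subunit typical of endothelium and interstitial cells, showed no separation. Probe set 1435436_at read 10.02, 10.31 and 10.33 in WT and 10.12, 10.16 and 10.08 in KO, and the KO values fell inside the WT range (difference −0.10 ± 0.09, which was −0.20 without WT replicate 1 and −0.04 without WT replicate 3). Probe set 1449888_at differed by −0.02 ± 0.10. Hif3a, whose splice forms include inhibitors of the other alpha subunits, had 6 probe sets, of which 4 lay under the level filter. Its tested probe sets differed by −0.06 ± 0.09 (1425428_at, from −0.14 without KO replicate 1 to −0.01 without KO replicate 3) and 0.01 ± 0.07 (1425429_s_at). Under the filter, 1421572_at read 5.96, 5.79 and 5.84 in WT and 5.71, 5.73 and 5.67 in KO without overlap (−0.16 ± 0.08), while the other 3 overlapped, at −0.11, 0.07 and 0.20. So near the lower end, log2 array values hold much background.

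Arnt, the partner that every HIF alpha subunit needs, gave opposite signs at different probe sets. Probe set 1421721_a_at read 7.08, 6.99 and 7.0 in WT and 7.10, 7.18 and 7.09 in KO, higher in every KO mouse by a small margin (0.10 ± 0.07). Probe set 1437042_at read 7.88, 8.02 and 7.92 in WT and 7.85, 7.72 and 7.85 in KO, lower in every KO mouse (−0.14 ± 0.07, and −0.09 without KO replicate 2). Neither came near the threshold (limma adjusted p = 0.993 for both). At 1425064_at, WT replicate 2 stood alone at 5.67, with the other 5 arrays between 6.03 and 6.13, and the difference of 0.10 became −0.05 without it. The remaining Arnt probe sets stood at 0.04 (1419996_s_at) and, under the filter, −0.09 (1449696_at).

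The prolyl hydroxylase genes differed little. Egln1, which encodes the main prolyl hydroxylase PHD2, read 8.44, 8.52 and 8.42 at 1423785_at in WT and 8.47, 8.21 and 8.31 in KO. KO replicate 1 lay among the WT values and the other 2 KO mice lay below them, at a difference of −0.13 ± 0.08. It was −0.07 without KO replicate 2 and −0.20 without KO replicate 1. Its other probe set, 1451110_at, differed by −0.01 ± 0.12. Egln2, which encodes PHD1, was tight over all 6 mice, with 12.97, 12.86 and 12.89 in WT and 12.91, 12.92 and 12.87 in KO. Its difference of −0.01 ± 0.05 had the smallest SE of the tested members. Egln3, which encodes PHD3, stayed between 4.21 and 4.99 at both probe sets on all arrays, with differences of −0.02 and 0.05, and was not tested because it lay under the filter.

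Hif1an, the asparaginyl hydroxylase also called FIH, was close between groups at its probe set 1428576_at (9.31, 9.53 and 9.26 in WT, 9.34, 9.30 and 9.33 in KO, difference −0.04 ± 0.08). Probe set 1452845_at read 6.83, 6.58 and 6.67 in WT and 6.64, 6.56 and 6.38 in KO. The ranges overlapped at a difference of −0.17 ± 0.10 (−0.09 without KO replicate 3 and −0.10 without WT replicate 1), and the third probe set, 1447817_at, stood at −0.16 ± 0.13 under the filter. All 3 differences were below 0, and the WT and KO ranges overlapped at each.

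Vhl, the substrate receptor of the ligase that marks hydroxylated HIF, had differences of −0.01 ± 0.06 at 1434708_at and −0.02 ± 0.11 at 1421071_at. The latter read 8.66, 8.21 and 8.57 in WT and 8.40, 8.51 and 8.46 in KO. WT replicate 2 was again the lowest array, and the difference became −0.15 without it. Vegfa, the angiogenic growth factor and a classic HIF target, read 6.15, 6.0 and 6.11 at 1451959_a_at in WT and 5.89, 6.20 and 6.07 in KO (−0.03 ± 0.10). Its other probe set, 1420909_at, lay under the filter at 0.09 ± 0.10. Both overlapped between genotypes. Probe set 1451959_a_at lay just above the filter limit of 6.02, with means of 6.09 in WT and 6.06 in KO. Its overlap therefore says little about Vegfa.

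**Figure D3:**
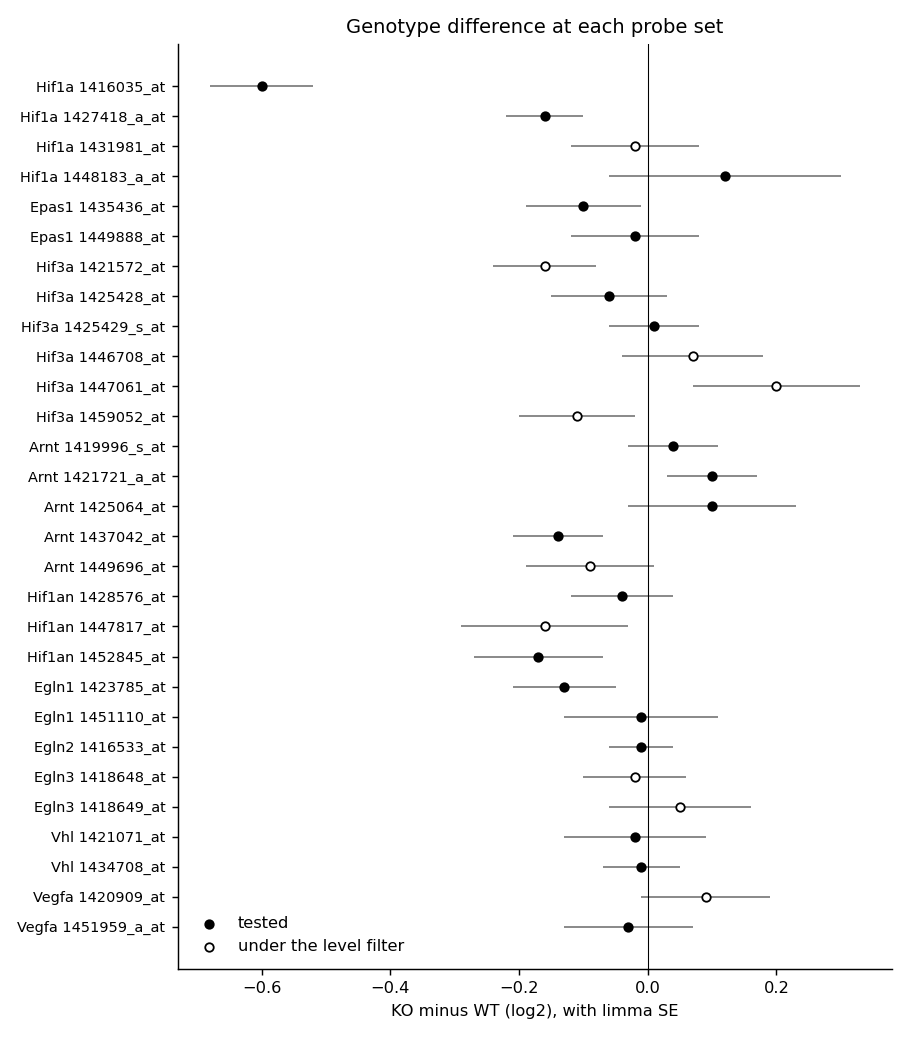
KO minus WT difference (log2, horizontal axis) of each of the 29 probe sets with its limma SE as the bar, filled for the 19 tested and open for the 10 under the level filter. Hif1a 1416035_at (−0.60) stands away from the rest, which lie between −0.17 and 0.20.

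Over the 29 probe sets, KO and WT values did not overlap at 5 (17.2%), against 10.3% of all probe sets outside the controls. Of these, 4 were lower in KO (2 of Hif1a, 1 of Arnt and 1 of Hif3a), where 4.21% of all probe sets were, and 1 of Arnt was higher, where 6.13% were. With 5 probe sets, nothing is read from the gap between these shares. WT replicate 2 was the lowest array at 8 of the 29 probe sets (27.6%, against 20.3% of all probe sets), and KO replicate 1 was also the lowest at 8 (against 12.8%). WT replicate 1 was the lowest at 3 (10.3%, against 26.2%). At the other end, WT replicate 1 and KO replicate 2 were each the highest at 8 (27.6%, against 19.1% and 14.0%).

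Around the core genes, 6 lists of pathway genes gave no call. They held 102 measured genes counted once, each read at its probe set with the highest mean, and 0 passed in either direction (limma, 5 at an unadjusted p under 0.05). Of all 13897 genes read this way, 0.0432% passed, 5.51% had an unadjusted p under 0.05 and 55.9% were higher in KO. With 1 array left out, the median of each list moved by over 1.5 times, as did the differences of several named genes. Partners and cofactors of HIF were higher in KO in 9 of 12 cases with a median of 0.03 log2 (−0.002 with quantile normalization, and 0.013 without WT replicate 1 to 0.057 without WT replicate 3 or KO replicate 3), against a median of 0.012 over all genes. Crebbp, a coactivator that binds the HIF alpha subunit, stood at 0.10 ± 0.06, the clock factor Arntl at 0.15 ± 0.09 (0.08 without KO replicate 1 and 0.23 without KO replicate 2) and Cited4 at −0.15 ± 0.07. Of the VHL ligase and HIF turnover genes 10 of 15 were higher (median 0.02, and 0.064 without WT replicate 3), with the elongin Elob at 0.08 ± 0.04 (0.05 without WT replicate 1), the ubiquitin-conjugating enzyme Ube2s at 0.09 ± 0.06 (0.04 without WT replicate 2) and the scaffold Cul2 at −0.07 ± 0.05. Second probe sets did not always share the sign, as at Cul2 (0.11 ± 0.12) and Crebbp (−0.05 ± 0.07, with the remaining tested one at 0.05 ± 0.16), while that of Elob stood at 0.0 ± 0.06. Under the filter, those of Arntl (−0.08 ± 0.12) and Cited4 (0.06 ± 0.08) also had the other sign, and that of Ube2s (0.11 ± 0.11) shared it.

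Genes known to be induced by hypoxia went both ways, with 13 of 27 higher in KO (48.1%), 14 lower and a median of −0.005 (−0.019 without KO replicate 3 and 0.004 without WT replicate 3). The chemokine gene Cxcl12 had the largest difference, reading 8.37, 8.13 and 8.48 in WT and 8.74, 8.49 and 8.86 in KO. All KO values lay above all WT values, KO replicate 2 only just (0.38 ± 0.12, limma adjusted p = 0.863). Its second tested probe set stood at 0.22 ± 0.14. Ddit4, an inhibitor of mTOR signalling, went the other way, with 9.25, 9.27 and 9.33 in WT and 9.13, 9.02 and 9.13 in KO (−0.18 ± 0.06, limma adjusted p = 0.863). The collagen prolyl hydroxylase subunit P4ha2, also on the list of other hydroxylases, stood at 0.23 ± 0.10, and at 0.14 without WT replicate 2. These 3 were the list's genes at an unadjusted p under 0.05.

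VEGF ligands and receptors also went both ways, with 4 of 9 higher (44.4%) and a median of −0.008 (−0.051 without KO replicate 3 and 0.015 without KO replicate 1). Nrp2, a coreceptor, stood at −0.17 ± 0.09 (−0.10 without KO replicate 3) and at −0.38 ± 0.12 at its other tested probe set (limma adjusted p = 0.863), the VEGF receptor Flt1 at 0.13 ± 0.10 and the ligand Pgf at 0.11 ± 0.09. Without WT replicate 2, Flt1 stood at 0.04. Leaving out KO replicate 1 gave 0.06 for Flt1 and 0.01 for Pgf. Other hydroxylases that use 2-oxoglutarate were higher in 11 of 20 cases (55.0%). Their median of 0.01 became −0.006 with quantile normalization and −0.001 with array medians equalised, and it ran from −0.008 without WT replicate 2 to 0.078 without WT replicate 1. Among them Jmjd8 read 7.60, 7.70 and 7.69 in WT and 7.50, 7.42 and 7.45 in KO, lower in every KO mouse (−0.21 ± 0.07, limma adjusted p = 0.863), and the ribosomal oxygenase Riox1 stood at 0.13 ± 0.09 (0.22 without WT replicate 1 and 0.07 without WT replicate 3). Enzymes that make or use 2-oxoglutarate, succinate and fumarate were higher in 14 of 21 cases (66.7%), with a median of 0.026 that ran from 0.004 without KO replicate 1 to 0.064 without KO replicate 3. Idh1, the cytosolic enzyme that makes 2-oxoglutarate from isocitrate, read 10.74, 10.75 and 10.84 in WT and 10.98, 10.83 and 11.01 in KO (0.16 ± 0.07), with KO replicate 2 inside the WT range and a second probe set at 0.11 ± 0.12. The succinyl-CoA ligase subunits Sucla2 and Suclg1 stood at 0.08 ± 0.05 (0.04 without WT replicate 1) and 0.07 ± 0.05 (0.04 without KO replicate 2).

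**Figure D4:**
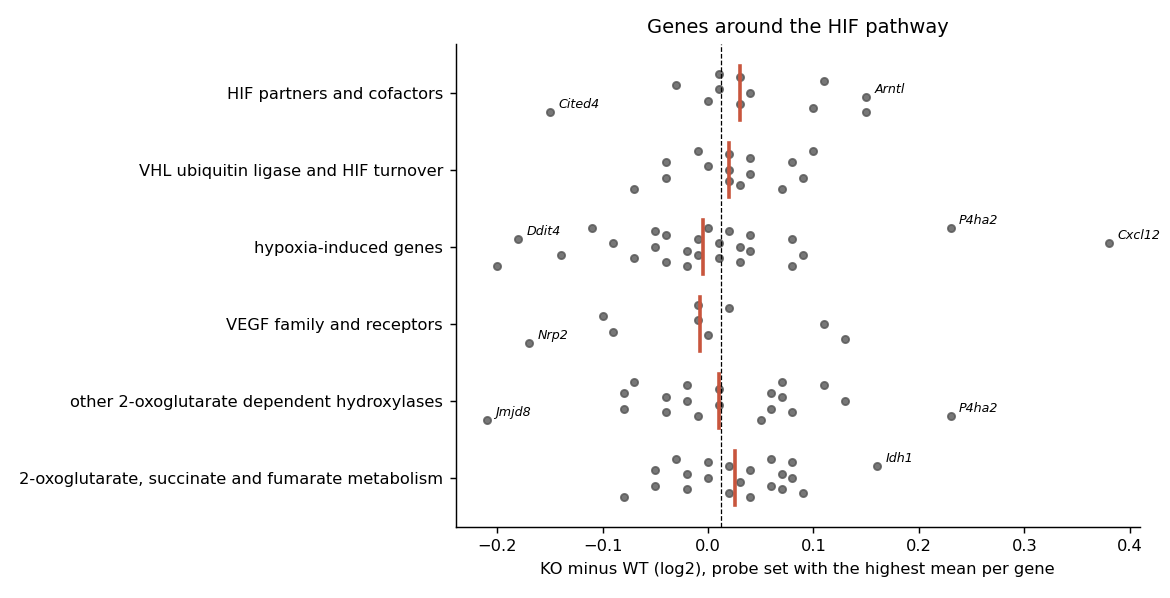
KO minus WT difference (log2, horizontal axis) of each measured gene in 6 lists around the HIF pathway, 1 point per gene, with the list median as a red bar and the median of all 13897 genes (0.012) as a dashed line. List medians lie between −0.008 and 0.03, and Cxcl12 (0.38) is the point farthest from 0.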

How the data were processed

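Total RNA of 6 testes was labelled with biotin and hybridised to 1 array each. The values deposited by the authors are log2 expression, already normalized. GCOS 1.4 appears in the submitters' processing notes, while the normalization, the background step and the summary of probes are not given in the sources used. That the scale is log2 was judged from the values (2.61 to 15.00), and no detection calls were used. Such values can understate folds of weak transcripts, which was not tested here, and the number of arrays limits the precision.

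Without the 64 control probe sets, the upper 60% by mean level was kept. KO was compared with WT by limma 3.58.1 (R 4.3.3; lmFit, eBayes with intensity trend, two-sided, Benjamini-Hochberg over the kept probe sets) and the fit was tested on simulated data. For probe sets under the filter, differences and SEs came from the fit without a filter. Symbols of list genes were updated with RefSeq names. All members are reported. Of each list up to 3 genes with the smallest p are named. Further probe sets of Cxcl12, Nrp2, Cul2, Crebbp, Elob, Idh1, Arntl, Cited4 and Ube2s were added after values were seen. Replicates are separate mice. The members and lists were chosen with earlier results of these data known. Marker lists of Leydig cells, myoid cells, macrophages, endothelium, epididymis, adipose tissue and erythroid cells had 0 genes past the test. Few genes were tested for endothelium (3 of 6), epididymis (1 of 6), adipose tissue (1 of 5) and erythroid cells (1 of 6). For these lists the count of 0 says little.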

Additional observations from a re-analysis of the deposited data

How the results depend on the processing

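Alternatives covered normalization, level filter, the replicate block, moderation, array weights, leaving out each array, and leaving out WT replicates 1 and 2 together (1 WT array left, assumed to vary like the KO group). The count of members past the test stayed at 0 under 14 of 15 and was 1 with array weights (Hif1a 1416035_at); that of the pathway lists stayed at 0 under all 15. Over all probe sets, 11 were called, 7 with the upper 40% by level, 46 with array weights, 2 without WT replicates 1 and 2, and from 2 to 12 with 1 array left out. Of 277 member differences under alternatives 2 moved by over 1 SD between replicates, those of Hif3a 1425429_s_at (0.06) and Hif1an 1428576_at (0.07), both without WT replicates 1 and 2. List medians had a further alternative, in which each gene was read as the mean of its probe sets. Of 96 list medians under alternatives 5 moved by over 1 SD: those of the other hydroxylases (0.078 without WT replicate 1), VHL and turnover (0.064 without WT replicate 3), metabolism (0.064 without KO replicate 3) and VEGF (−0.051 without KO replicate 3 and −0.072 without WT replicates 1 and 2). Deviations from the group mean on same-numbered KO and WT arrays had r = 0.223, −0.024 and 0.096 over probe sets. Arrays of unlike number gave −0.279 to 0.252, so these few values cannot show whether the numbers pair the mice. With the replicate block 9 probe sets were called, 0 of them members, and Hif1a 1416035_at had a limma adjusted p of 0.143. Differences near 0 changed sign between alternatives, and their order is not resolved at 3 mice a group. The cause of these shifts was not tested.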
